A study of Homo sapiens with 4 samples.

Results

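The genes described here are 10 receptor tyrosine kinases with known roles in glioma, EGFR, MET, PDGFRA, FGFR1, FGFR3, EPHA2, EPHA3, EPHA4, EPHB2 and DDR1, chosen by name and read by the gene symbol that the array's annotation gives to a probe set. Of the 10, 8 had a probe set of their own, against 7745 protein-coding genes so identified in the whole table. DDR1 had only a probe set that carries a second symbol, MIR4640, so its values are given for that shared probe set and enter no count of receptors. EPHB2 had no probe set named in the annotation and was not analysed here. The cells were LN229, an established human glioblastoma line grown in serum-containing medium. They were left untreated or exposed to 5 µM ATO, the common short form for arsenic trioxide, for 6 h, and either total RNA or polysomal RNA was hybridised. Polysomal RNA is the RNA that sediments with several ribosomes bound and so reports mRNA under translation. The 4 groups were untreated total, ATO total, untreated polysomal and ATO polysomal RNA, with 1 array sample in each, for which technical triplicates had been pooled per the series' design text. No difference below therefore has a replicate error or a test, and whether a difference would recur cannot be read from these samples. One sample has conflicting labels: its title reads ATO treated total RNA, which was followed here, and its source name reads polysomal, so every comparison that uses it carries that doubt. Those without it are polysomal against total RNA in untreated cells and ATO against untreated in polysomal RNA.

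Receptor tyrosine kinases are single-pass membrane proteins whose extracellular part binds a growth factor, a membrane-bound ephrin or collagen and whose cytoplasmic part is a kinase. Ligand binding brings receptors together, they phosphorylate each other on tyrosines, and adaptors docked there pass the signal to RAS and MAP kinases and to PI3-kinase and AKT. In glioblastoma, EGFR, PDGFRA and MET are the receptors best known for gene amplification, FGFR3 for a fusion with TACC3, and EPHA2 and EPHA3 for high levels on stem-like tumour cells.

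Because the readout is ribosome loading, the annotated mRNA starts of 7 receptors are shown first; none is printed for FGFR1, DDR1 or EPHB2. mRNAs that begin with a C followed by an unbroken run of C and T bases, the terminal oligopyrimidine (TOP) start, are known to have their translation tied to mTOR. The windows below come from RefSeq (GRCh38.p14), run 5′ to 3′ on the transcribed strand from the most upstream annotated start, and hold 15 bases before the start in lower case and the first 15 transcribed bases in capitals. They lie at chr7:55019002-55019031 (plus strand) for EGFR, chr7:116672181-116672210 (plus) for MET, chr4:54229278-54229307 (plus) for PDGFRA, chr4:1793278-1793307 (plus) for FGFR3, chr1:16156055-16156084 (minus) for EPHA2, chr3:89107606-89107635 (plus) for EPHA3 and chr2:221574188-221574217 (minus) for EPHA4.
EGFR: cggcccgcgcgagctAGACGTCCGGGCAGC
MET: gcacgcgaggcagacAGACACGTGCTGGGG
PDGFRA: gcggtttttgagcccATTACTGTTGGAGCT
FGFR3: gggcagcccaggctcAGTGCGCGGTGGCGG
EPHA2: tctcacccaacttccATTAAGGACTCGGGG
EPHA3: ctcctccttatctccAGTGTCAAACTTGAC
EPHA4: gcccagcgcctcggcACGCGTGCTCATCTT
All 7 shown transcripts start with A at this annotated position, as do 47.1% of the tested genes with a window, and 0 of 7 has a C followed by at least 4 bases that are each C or T. That motif, read on the transcribed strand only and only at the start itself, stood in 4.07% of 35116 RefSeq start windows. No match says only that these letters are not at these annotated starts.

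Over the 3873 coding genes whose mean log2 value reached 7.80, the median of all coding genes (the level filter), sample medians ran from 11.03 to 11.23. Polysomal minus total differences had a median of 0.19 in untreated and 0.17 in ATO cells over those genes, so a receptor's difference is also given relative to that shift. The log2 scale of the deposited table passes 16 for 406 probe sets, so folds are folds on that scale. Of the glioma and astroglial markers, 8 of 9 measured lay above the silent-gene level defined in the next paragraph, among them SOX2 (mean 12.94) and NES (10.96), while BCAN (4.07) did not. Of markers of other cell types, 0 of 8 for microglia, 1 of 6 for epithelium (ESRP1, 7.46), 1 of 6 for neurons (GAD1, 9.23) and 3 of 7 for endothelial and mural cells did (RGS5 at 9.14, EMCN at 7.27 and PDGFRB at 7.03), with the endothelial receptors KDR, TIE1 and FLT4 between 3.23 and 4.78. In bulk RNA, fewer cells that carry a transcript and less of it per cell cannot be told apart.

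The first question was which of the listed receptors LN229 cells express. Of the 8 receptors with their own probe set, 7 were read above genes that are silent in glial cells, and FGFR3 was not. The reference for silence was 100 olfactory receptor genes on the same array, whose mean log2 values ran from 3.03 to 6.97 with a 95th percentile of 5.45. A probe set's brightness depends on its probes, so a value above this range says that signal was present and gives no order among the receptors.

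Among the growth factor receptors, EGFR, the receptor of EGF and TGF-alpha, was read at log2 values of 8.68 in untreated total, 8.71 in ATO total, 8.65 in untreated polysomal and 8.66 in ATO polysomal RNA. The 4 samples lie within 0.06 of each other, the narrowest range of the 8 receptors. MET, the receptor of hepatocyte growth factor, had 14.07, 14.19, 13.97 and 13.96 in the same order, with both total samples above both polysomal samples. PDGFRA, a receptor of platelet-derived growth factors, had 8.84, 8.81, 9.11 and 8.82, so that untreated polysomal RNA stood above the other 3 samples. FGFR1, a receptor of fibroblast growth factors, had 8.67, 8.58, 9.08 and 9.30, with both polysomal samples above both total samples. FGFR3, of the same family, had 5.24, 4.96, 5.46 and 5.55, all within the range of the olfactory receptor genes, with ATO polysomal RNA highest and ATO total RNA lowest.

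Among the ephrin receptors, which bind ligands anchored on neighbouring cells, EPHA2 had log2 values of 9.29 in untreated total, 9.10 in ATO total, 8.54 in untreated polysomal and 8.86 in ATO polysomal RNA. Both polysomal samples lay below both total samples, and untreated polysomal RNA was lowest. EPHA3 had 11.62, 11.59, 11.41 and 11.45 in the same order, a range of 0.21, again with polysomal below total RNA. EPHA4 had 8.38, 7.99, 8.28 and 7.79, where the samples parted by treatment: both ATO samples lay below both untreated samples, and ATO polysomal RNA was just under the level filter. The probe set shared by DDR1, a collagen receptor, and MIR4640 had 11.42, 11.29, 11.61 and 11.64, with both polysomal samples above both total samples.

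**Figure D1:**
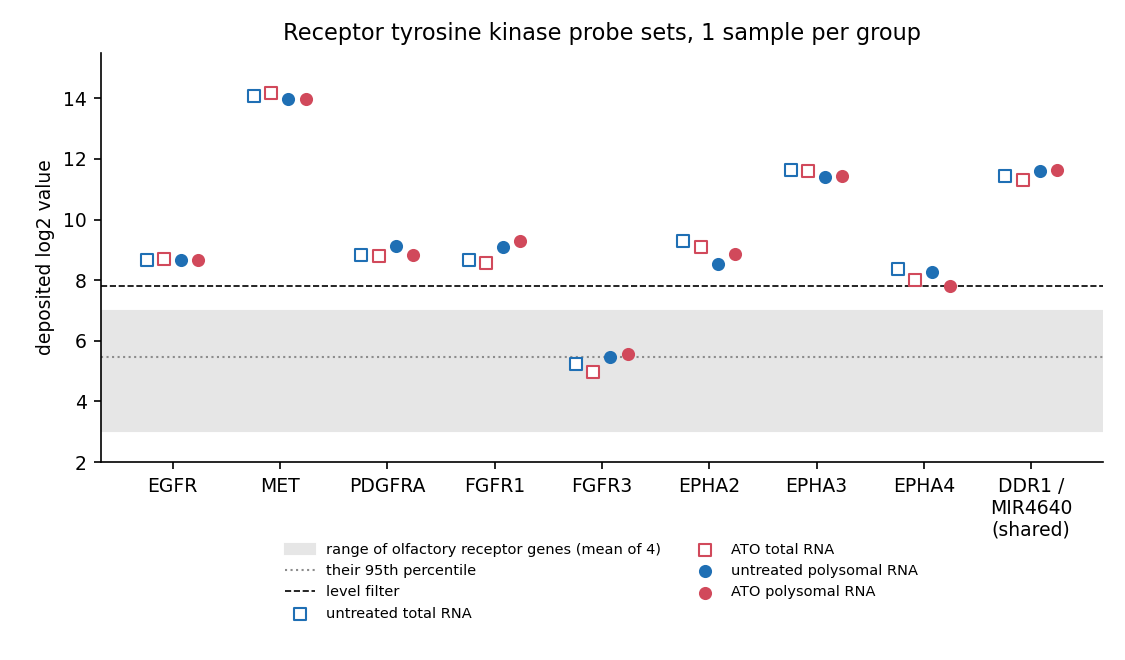
Deposited log2 values (vertical axis) of each receptor probe set in the 4 samples (squares, total RNA; circles, polysomal RNA; blue, untreated; red, ATO), with the range of the means of 100 olfactory receptor genes shaded and the level filter of 7.80 dashed. FGFR3, from 4.96 to 5.55, lies inside the shaded range, and all other receptor points lie above it.

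Polysomal RNA was next compared with total RNA in untreated cells, which asks which receptor mRNAs were over- or under-represented on polysomes. EPHA2 stood low, 1.68-fold lower in polysomal RNA (a log2 difference of -0.75, or -0.94 relative to the median of all tested genes), and FGFR1 was highest at 0.41. Past 1.5-fold, the cut-off that the submitters used for polysome enrichment, 1 of the 7 receptors past the filter was lower (EPHA2), beside 4.73% of all tested genes, and 0 of 7 was higher, beside 16.2%. With each sample centred on its median over the tested genes, the counts of receptors were the same and the shares of all genes became 9.89% lower and 6.02% higher. Of the tested genes, 85 of 3873 stood as low as EPHA2 or lower, EPHA2 included. The other receptors lay within 1.5-fold: PDGFRA at 0.27, EGFR at -0.03, MET and EPHA4 at -0.10 each and EPHA3 at -0.21. Their median with EPHA2 and FGFR1 was -0.10, and 5 of 7 lay below 0, where 33.0% of all tested genes did. FGFR3, below the filter, had 0.22, and the shared DDR1 probe set had 0.19, equal to the median of all genes.

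In ATO-treated cells FGFR1 stood highest, 1.65-fold higher in polysomal than in total RNA (0.72, or 0.55 relative to the median of all tested genes). It was the 1 receptor of 7 past 1.5-fold higher, beside 14.7% of all tested genes, and 0 of 7 was past it on the low side, beside 3.92%. The call for FGFR1 ended with the same centring, which gives 0.55 against a threshold of 0.585 and shares of all genes of 6.25% higher and 8.11% lower. EPHA2 stood at -0.24, MET at -0.23, EPHA4 at -0.20, EPHA3 at -0.14 and EGFR at -0.05, while PDGFRA was at 0.01. FGFR3 had a difference of 0.59 at signal levels inside the silent range. Among the 847 coding genes within 0.5 of its mean level, 5.55% were past 1.5-fold higher in the same comparison. The shared DDR1 probe set had 0.35. In both states, then, 5 of 7 receptors lay below 0, where 33.0% and 32.1% of all tested genes did, and FGFR1 was the highest of the 7. The count moves with scaling. In untreated cells 4 of 7 lay below 0 with centring over all probe sets, where the median of all tested genes was 0.23. In ATO cells 6 of 7 did with centring over tested genes, where that median was 0. The shares of 33.0% and 32.1% are of the deposited scale and do not apply to these counts.

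**Figure D2:**
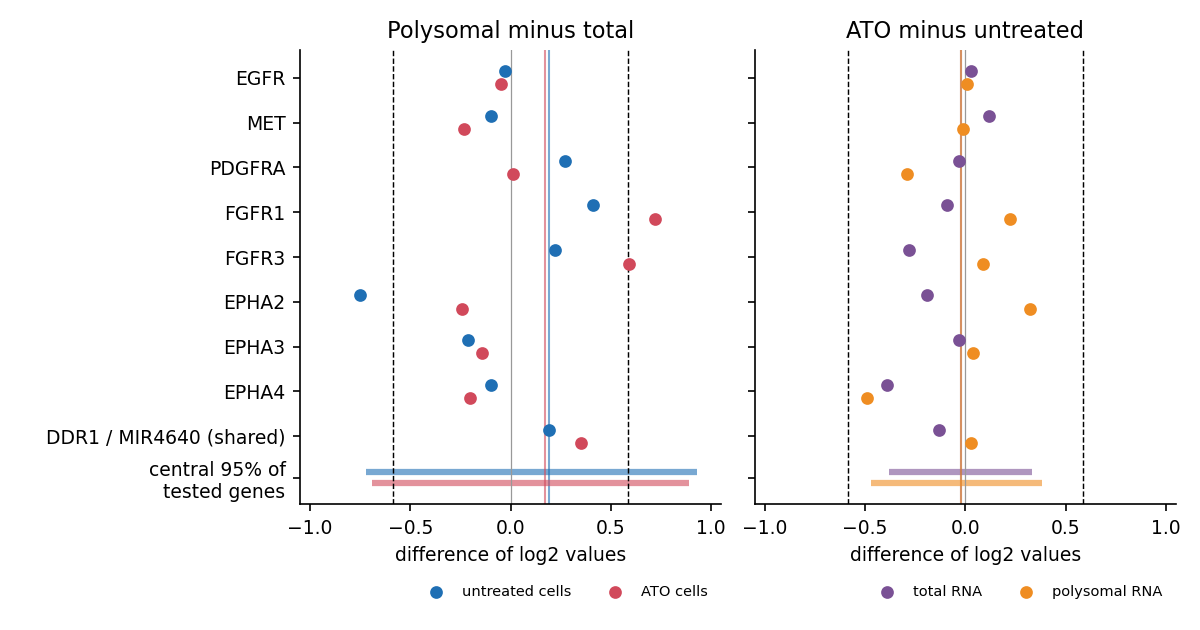
Differences of log2 values (horizontal axis) for each receptor, polysomal minus total RNA on the left (blue, untreated cells; red, ATO cells) and ATO minus untreated on the right (purple, total RNA; orange, polysomal RNA), with 1.5-fold dashed, the median of all tested genes as coloured lines and the central 95% of those genes as bars at the foot. EPHA2 at -0.75 in untreated cells and FGFR1 at 0.72 in ATO cells are the points of filtered receptors beyond 1.5-fold, and EPHA4 is the lowest point on the right in either fraction.

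The effect of ATO on mRNA abundance was read in total RNA. None of the receptors passed 1.5-fold: 0 of 7 was past 1.5-fold higher, beside 0.103% of all tested genes, and 0 of 7 lower, beside 0.361%. EPHA4 had the lowest value, -0.39, and 89 of the 3873 tested genes stood as low or lower. EPHA2 was at -0.19, FGFR1 at -0.09, PDGFRA and EPHA3 at -0.03 each, EGFR at 0.03 and MET at 0.12. FGFR3 had -0.28 and the shared DDR1 probe set -0.13.

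In polysomal RNA, 0 of 7 receptors was past 1.5-fold higher with ATO, beside 0.258% of all tested genes, and 0 of 7 lower, beside 0.878%; with centring the shares were 0.413% and 0.697%. EPHA4 was again lowest, at -0.49, a value that 85 tested genes reached or passed. PDGFRA followed at -0.29. EPHA2 was highest at 0.32 and FGFR1 had 0.22, while EPHA3 (0.04), EGFR (0.01) and MET (-0.01) were near 0. FGFR3 had 0.09 and the shared DDR1 probe set 0.03.

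EPHA4 thus had the lowest ATO difference of the 7 receptors in both fractions, in comparisons that share no sample. This order rests on its brighter probe set: with both of its probe sets averaged, EPHA4 no longer passes the filter and its polysomal difference is -0.17, above that of PDGFRA (-0.29). Its 2 differences lie at the edge of the central 95% of all tested genes, which ran from -0.38 to 0.33 in total and from -0.47 to 0.38 in polysomal RNA. Dim genes spread more widely: among the 479 coding genes within 0.5 of the EPHA4 mean, the central 95% ran from -0.49 to 0.46 in total and from -0.53 to 0.41 in polysomal RNA, and EPHA4 lay inside both. Besides EPHA4, 2 genes stood at or below its value in both fractions, MANEAL (-0.64 in total, -0.51 in polysomal RNA) and FBXO45 (-0.39, -0.73), named after their values were seen. A second probe set annotated to EPHA4 was read at a mean of 4.96, within the silent range, and had -0.66 in total and 0.15 in polysomal RNA.

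**Figure D3:**
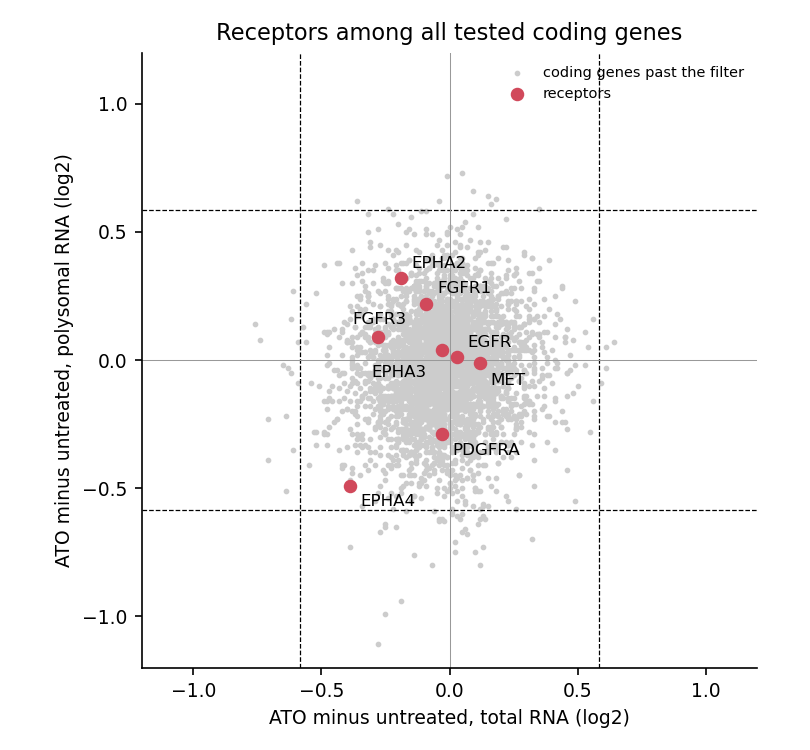
ATO minus untreated in total RNA (horizontal axis, log2) against the same difference in polysomal RNA (vertical axis, log2) for 8 receptors (red) and the 3873 coding genes past the filter (grey), with 1.5-fold dashed. EPHA4 lies at -0.39 and -0.49, EPHA2 at -0.19 and 0.32, and EGFR, EPHA3 and MET lie near the centre.

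The series' own question was whether the polysomal/total ratio differed between ATO-treated and untreated cells. No receptor ratio differed by more than 1.5-fold: 0 of 7 was higher with ATO, beside 1.60% of all tested genes, and 0 of 7 lower, beside 2.01%; with centring the shares were 2.01% and 1.63%. EPHA2 came nearest, with a ratio 1.42-fold higher with ATO (0.51). Total RNA of EPHA2 was lower by 0.19 and its polysomal RNA higher by 0.32, and the untreated polysomal value of 8.54 enters both the polysomal difference and the low untreated ratio. Of 3873 tested genes, 116 had a ratio difference as high or higher. Among the 543 genes within 0.5 of the EPHA2 mean level, the central 95% ran from -0.64 to 0.63. FGFR1 followed at 0.31, and EPHA3 stood at 0.07, EGFR at -0.02, EPHA4 at -0.10, MET at -0.13 and PDGFRA at -0.26. For EPHA4, whose ratio was -0.10 in untreated and -0.20 in ATO cells, the differences with ATO had the same sign in both fractions. For PDGFRA, the difference sat in polysomal RNA (-0.29), with total RNA at -0.03. FGFR3 had 0.37 and the shared DDR1 probe set 0.16.

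The genes nearest to each receptor in their pattern over the 4 samples were found as the Euclidean distance between log2 values after each gene's own mean was subtracted, over the tested coding genes. With 4 samples many genes share a similar pattern. Within 0.10 there were 147 genes for EGFR, 85 for EPHA3, 68 for MET, 51 for PDGFRA and 34 for FGFR1. The nearest to EGFR were OPA1, TMEM161B and LZTS1 (0.01 to 0.02), and to MET they were BIRC6, NRP2 and PTX3 (0.03 to 0.05). SHC1, an adaptor that docks on activated receptors, was nearest to PDGFRA (0.03), followed by WIPI2 and LMO4. TMCO1, ANKRD36 and EIF4EBP1 were nearest to FGFR1 (0.03 to 0.05), and RMDN1, TRIB2 and MRPS18B, the last tied with 1 other gene, to EPHA3 (0.02 to 0.04). EPHA2 had 5 genes within 0.10, of which the nearest were TBCK (0.06), the matricellular protein gene CCN2 (0.09) and TGS1 (0.09). The polysomal minus total differences of CCN2 (-0.74 untreated, -0.30 ATO) lie close to those of EPHA2 because nearness was how CCN2 was picked. EPHA4 had 0 genes within 0.10; its nearest were NCOA1 (0.15), GPSM2 (0.16) and PRDM1 (0.18).

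Other receptor tyrosine kinases and the genes that act around the receptors were described from 5 lists. Only probe sets of chromosomes 1 to 8 and some of chromosome 9 were read. Receptor genes elsewhere are therefore missing, and the lists are not a full set of receptors. Of 29 other receptor tyrosine kinases measured, 7 passed the level filter: EPHB3, EPHB4, the collagen receptor DDR2, the WNT-binding ROR1, RYK and PTK7, and LMTK2. FGFR4 (7.51) and PDGFRB (7.03) lay below the filter and above the highest olfactory receptor gene, and 16 lay at or below the olfactory 95th percentile. None of the 7 was past 1.5-fold in any of the 5 comparisons, beside the shares of all tested genes given above. With centring 1 was lower in ATO cells, beside 8.11%. Their polysomal minus total medians were 0.13 in untreated and -0.06 in ATO cells, or -0.06 and -0.23 with centring. PTK7 (0.18 untreated, 0.20 ATO) and LMTK2 (0.13, 0.36) stood highest on average and ROR1 (-0.08, -0.56) and RYK (-0.16, -0.06) lowest. ROR1 read 11.28 in untreated total, 11.65 in ATO total, 11.20 in untreated polysomal and 11.09 in ATO polysomal RNA, so the ATO total sample stood apart from the other 3.

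The ligand list held the largest polysomal excess of the 5 lists, EFNA1. Of 28 genes measured in the ligand list, 12 passed the filter. Their polysomal minus total medians were 0.415 in untreated and 0.37 in ATO cells, beside 0.19 and 0.17 over all tested genes. The 12 include FGF12 (0.45, 0.38), and whether each listed gene binds a receptor was not examined here. Of the 12, 2 in untreated and 3 in ATO cells were past 1.5-fold higher, beside 16.2% and 14.7% of all tested genes, so the untreated count is near the background share. With centring 1 was higher in each state, beside 6.02% and 6.25%. In either state 0 of 12 was past 1.5-fold lower, beside 4.73% and 3.92% of all tested genes. In each, 10 of 12 lay above 0, where 66.3% and 67.0% of all tested genes did. With centring the medians became 0.225 and 0.20, beside 0 over all tested genes. The counts above 0 were then 8 and 9 of 12. EFNA1, an ephrin bound by EPHA receptors, read 8.70 in untreated total, 8.65 in ATO total, 9.71 in untreated polysomal and 9.62 in ATO polysomal RNA. Its polysomal values were higher by 1.01 in untreated and 0.97 in ATO cells, in the opposite direction to EPHA2. PDGFC, a PDGFRA ligand, had 0.76 and 0.40, FGF2, an FGFR1 ligand, 0.54 and 0.66, and TGFA, an EGFR ligand, 0.58 and 0.68. NRG1 (-0.14, -0.31) and the angiogenic factor VEGFA (-0.28, -0.06) stood lowest. HGF, the MET ligand, had a mean of 5.66, within the range of the olfactory receptor genes.

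Below the receptors, 15 of 19 measured adaptors, kinases and GTPases passed the filter, with polysomal minus total medians of 0.10 in untreated and 0.05 in ATO cells. With centring these became -0.09 and -0.12. None was past 1.5-fold in untreated cells, beside 16.2% of all tested genes higher and 4.73% lower. With centring 1 was past 1.5-fold lower, beside 9.89%. In ATO cells 2 of 15 were past it on the low side, beside 3.92% of all tested genes, GAB1, a docking protein used by MET and EGFR (-0.90, against -0.21 untreated), and PTK2, the focal adhesion kinase (-0.63, against -0.25). GAB1 read 10.67 in untreated total, 11.12 in ATO total, 10.46 in untreated polysomal and 10.22 in ATO polysomal RNA. It was high in ATO total RNA and low in ATO polysomal RNA. Its ratio was past 1.5-fold lower with ATO (-0.69), as the 1 gene of 15 in this list, beside 2.01% of all tested genes. GRB10 (0.38, 0.39) and NCK1 (0.48, 0.26) stood highest.

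Of 18 measured negative regulators, 14 passed the filter, with medians of -0.145 in untreated and 0.05 in ATO cells, or -0.335 and -0.12 with centring. In each state 1 of 14 was past 1.5-fold lower, beside 4.73% and 3.92% of all tested genes, and 0 was higher, beside 16.2% and 14.7%. With centring 3 and 1 were lower, beside 9.89% and 8.11%. DUSP1, a MAP kinase phosphatase, was past 1.5-fold lower on polysomes in untreated cells (-0.64, against -0.37 with ATO), and CBLB, a ubiquitin ligase that acts on activated receptors, in ATO cells (-0.75, against -0.54). SPRED2, an inhibitor of RAS signalling (0.49, 0.49), and ERRFI1, an inhibitor of EGFR (0.38, 0.22), stood highest. Neither the ATO comparisons in total and polysomal RNA nor the ratio difference put any of the 14 past 1.5-fold, beside the shares of all tested genes given above.

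All 15 measured transcriptional targets of receptor signalling passed the filter, 4 of which (SPRY1, SPRY4, DUSP1 and DUSP4) also stand among the negative regulators. Their medians were -0.13 in untreated and -0.23 in ATO cells. In untreated cells 3 of 15 were past 1.5-fold lower on polysomes (EGR1 at -0.96, MYC at -0.76 and DUSP1 at -0.64) and 2 higher (SRF at 0.88 and CCND3 at 0.65), beside 4.73% and 16.2% of all tested genes. In ATO cells MYC was the 1 gene past 1.5-fold lower (-0.68), beside 3.92% of all tested genes, and 0 was higher, beside 14.7%. With centring 6 were lower and 1 higher in untreated cells, beside 9.89% and 6.02% of all tested genes. In ATO cells 3 were then lower, beside 8.11%. EGR1, an immediate early transcription factor, had -0.53 with ATO. ATF3, a stress-response factor, had 0.37 and 0.52. With ATO, CCND3, a G1 cyclin, was the 1 gene of 15 past 1.5-fold lower in polysomal RNA (-0.65), beside 0.878% of all tested genes. CCND3 stood at -0.21 in total RNA. It read 11.90 in untreated total, 11.69 in ATO total, 12.55 in untreated polysomal and 11.90 in ATO polysomal RNA, with untreated polysomal RNA above the other 3 samples. In total RNA, 0 of the 15 was past 1.5-fold with ATO in either direction, beside 0.103% of all tested genes higher and 0.361% lower.

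**Figure D4:**
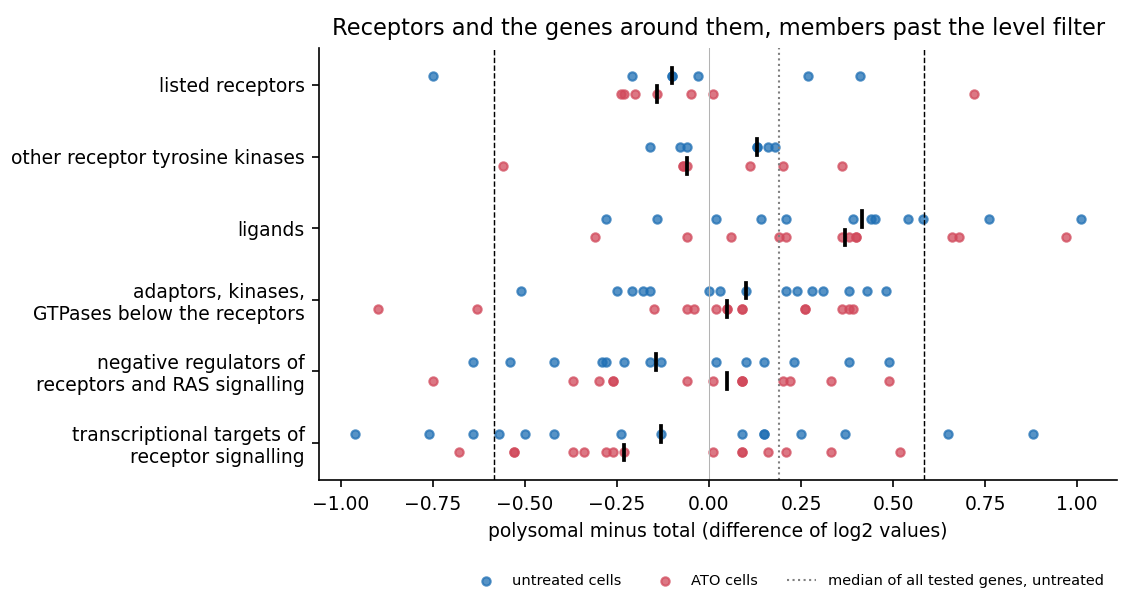
Polysomal minus total differences of log2 values (horizontal axis) for the 7 receptors past the level filter and for the filtered members of 5 lists, in untreated (blue) and ATO-treated cells (red), with each group's median as a black bar, 1.5-fold dashed and the median of all tested genes in untreated cells (0.19) dotted. The receptor medians lie at -0.10 and -0.14 and the ligand medians at 0.415 and 0.37.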

How the data were processed

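RNA of LN229 cells was measured on 4 array samples, 1 per group. The authors deposited log2 values, to 2 decimals, made with Affymetrix Expression Console per the submitters' processing notes; technical triplicates were pooled per the series' design text. The tool's version, the genome build, the summary method and the scaling were not given in the sources used here. In all, 65528 probe sets were read, of chromosomes 1 to 8 and, for 1722 of them, chromosome 9. The annotation gave 16127 of them 1 symbol, 419 several symbols and 48982 no symbol. Coding genes (7745) were taken from RefSeq through the Entrez identifier, and the probe set of highest mean stood for its gene. Genes with a mean of at least 7.80 were kept (3873). Differences of log2 values were formed with no test, and genes past 1.5-fold were counted. The deposited values were used without further scaling.

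The receptors, pathway and marker lists were chosen with earlier results of these data known. From each pathway list, genes past 1.5-fold in any comparison and the 2 highest and 2 lowest by mean polysomal minus total difference were named, and for each receptor the 3 nearest genes. A few genes were named outside this rule, among them HGF, FGFR4 and PDGFRB, which lay below the filter. Markers of other cell types were named where above the silent level. SOX2 and NES were named as examples of the glioma and astroglial markers above it, and BCAN, KDR, TIE1 and FLT4 lay below it. Where a sentence lists a whole filtered group, its members are named as such. Alternatives changed scaling (median centring over all probe sets or over tested genes, quantile normalization), subtracted a loess trend on level (span 0.3, statsmodels 0.14.6), changed the filter (none, 75th percentile), added an offset of 32, or averaged a gene's probe sets. The calling step was tested on simulated data with known fold changes. The number of arrays limits the precision. Python 3.11.15 with pandas 2.3.3 and numpy 2.4.6 was used.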

Additional observations from a re-analysis of the deposited data

Results flagged for a closer look

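Receptors whose ATO difference had one sign in total RNA and the other in polysomal RNA were singled out. With 1 sample per group the difference between the fractions was not tested, and signs differ easily where values are near 0. EPHA2 had -0.19 in total RNA and 0.32 in polysomal RNA, FGFR1 at -0.09 and 0.22, and FGFR3, at signal levels of silent genes, at -0.28 and 0.09. MET (0.12 in total, -0.01 in polysomal RNA) and EPHA3 (-0.03, 0.04) differed by less.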

How the results depend on the processing

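No receptor past 1.5-fold changed direction under the 8 alternatives. The ATO-cell count of receptors past 1.5-fold higher (1, FGFR1) became 0 with each sample centred on its median over tested genes (FGFR1 at 0.55), 2 with no filter, which admits FGFR3, and 0 with the filter at the 75th percentile. That filter also took the untreated count of receptors past 1.5-fold lower (1, EPHA2) to 0, because it leaves 2 receptors, MET and EPHA3. EPHA2 in untreated cells ranged from -0.94 to -0.70 over all settings, and FGFR1 in ATO cells from 0.55 to 0.74. The alternatives gave 355 values of the 8 receptors and the shared DDR1 probe set. A change of filter leaves each value as it was, and averaging probe sets can alter only EPHA4, so many of the 355 could not move. Of the 355, 3 crossed 1.5-fold (FGFR1 and FGFR3 with tested-gene centring, FGFR3 at 0.32 with the offset) and 9 changed sign. Among the latter, averaging both EPHA4 probe sets turned its ATO-cell polysomal minus total difference to 0.10 and its ratio difference to 0.355, and it moved its ATO difference in polysomal RNA to -0.17. Counting the shared probe set as DDR1, chosen after seeing the data, changed no count. The 2 settings that centre on tested genes or subtract the trend made PDGFRA in ATO cells negative (-0.16 and -0.12). No paired analysis was possible because each group holds 1 sample, and no replicate could be left out. The number of arrays and the distance of a probe set from the silent range limit what can be read, most of all for FGFR3.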
